A study of Homo sapiens with 3 samples.

Results

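The insulin-like growth factor (IGF) axis was followed through 10 transcripts, IGF1, IGF1R, IGF2R, IGFBP2, IGFBP3, IGFBP4, IGFBP5, IGFBP6, IGFBP7 and PAPPA, out of 22714 gene names in the deposited tables. Members were chosen by gene symbol, with earlier results of these data known. Each stood under its own name, and the rows of IGF2R and PAPPA, which had 2 each, were summed. The data were RNA-seq profiles of TC32, a long-established line of Ewing sarcoma, a tumour of bone and soft tissue driven by the EWS-FLI1 fusion protein. There was 1 library for each of 3 groups: TC32 with knockdown of EWS-FLI1, TC32 treated for 15 hours with 3 µM of a compound called YK, as in the title of its library (the plots carry its full name), and a control labelled WT. All were the same line grown in RPMI with fetal bovine serum, and serum itself carries IGFs and binding proteins. YK is described as a small molecule that blocks the binding of EWS-FLI1 to an RNA helicase, and its vehicle was DMSO. Neither the treatment given to the control cells nor the hairpin and duration of the knockdown is stated in the labels. The knockdown library carries shEF in its title and dEF in the heading of its values. With 1 library per group no difference has a replicate check, no test was made, and higher and lower describe these 3 libraries.

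IGF1 and IGF2 are secreted peptides that activate IGF1R, a receptor tyrosine kinase that signals through IRS adaptors and PI3 kinase to AKT and MTOR. IGF2R, the cation-independent mannose 6-phosphate receptor, has no kinase: it takes IGF2 to lysosomes and also sorts lysosomal enzymes. The binding proteins hold IGFs outside the cell and regulate their access to the receptor, and PAPPA is a metalloprotease that releases IGF by cutting IGFBP4 and related proteins. In Ewing sarcoma the axis is known as an autocrine growth circuit, and IGF1R has been a drug target in patients.

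The values are FPKM, which relate fragments to locus length and library size. The deposited scale differed between libraries: before scaling and without a pseudocount, the median compared gene lay at a log2 ratio of -2.14 for knockdown over control and -2.67 for YK over control. Each library was therefore multiplied by a factor set on the median gene (1.44 for knockdown, 2.12 for YK, 0.325 for control), which assumes that the median gene was level and cannot show a change of all mRNA together. A relative log2 ratio below is a difference of log2(scaled FPKM + 1), and it counted as higher or lower from an absolute value of 1. Only names with a mean deposited FPKM of at least 1 were compared, 9939 in all. FLI1, the fusion's DNA-binding partner, had 2.13 scaled FPKM in the knockdown library, 17.6 with YK and 21.4 in the control. Of the 5 Ewing sarcoma markers, CD99 was listed at 0 in all 3 libraries, and FLI1, NR0B1 and STEAP1 were lower in the knockdown library. With YK 0 of the 4 compared markers passed the threshold against control, with FLI1 at -0.27, NR0B1 at 0.37 and STEAP1 at -0.26. The annotation and the handling of multiply mapped reads are not stated, so the 0 of CD99 cannot be read as absent RNA. NKX2-2, the other marker, had 1.5 scaled FPKM after knockdown, 1.37 with YK and 0.852 in the control. Its relative log2 ratios were 0.43 after knockdown and 0.36 with YK.

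The markers of other cell types were read beside these values. In the knockdown library 4 of the 5 compared fibroblast markers were higher (FAP, COL1A1, PDGFRB and LUM) and DCN was lower, where 17.3% of all compared genes were higher and 17.0% lower. With YK 0 of the 5 passed the threshold. Of those not compared, COL1A2 had 0.511, 0.407 and 0.0286 scaled FPKM in the knockdown, YK and control libraries, and THY1 had 0.0381, 4.48 and 0.154. The 7 markers summed to 58.5 scaled FPKM after knockdown, against 29.3 with YK and 26.7 in the control. None of the 7 was at 0 in any library. The 4 endothelial markers summed to 0.642, 1.15 and 0.131 scaled FPKM in the knockdown, YK and control libraries, with CDH5 at 0 after knockdown. Of the 4 leukocyte markers CD3E was at 0 in all 3 libraries, and CD68, which lysosomes of other cells also hold, gave most of the sums of 27.4, 14.5 and 20.2. The part of these markers in the results was not tested.

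After knockdown of EWS-FLI1 the ligand was low and the receptors, most binding proteins and the protease were high. Of the 10 members 8 passed the filter on low values, and of these 7 were higher and 1, IGF1, was lower than in the control. Among all compared genes 17.3% were higher and 17.0% were lower. The members were chosen with earlier results of these data known, so setting them beside all genes is a description only. The median relative log2 ratio was 1.63 over the 10 members and 2.01 over the 8 that passed, beside 0.0064 over all compared genes. IGFBP3 and IGFBP6 had means below 1 and were not compared, and IGFBP5 and IGFBP7 passed only through their values in the knockdown library. In bulk RNA a higher share of cells with a transcript and more of it per cell cannot be told apart. With YK the spread was smaller, with 3 members higher (IGFBP5, IGFBP7 and PAPPA) and 0 lower, where 2.41% of all compared genes were higher and 1.69% lower. The median there was 0.83 over the 10 members and 0.93 over the 8 that passed the filter, beside 0.029 over all compared genes.

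**Figure D1:**
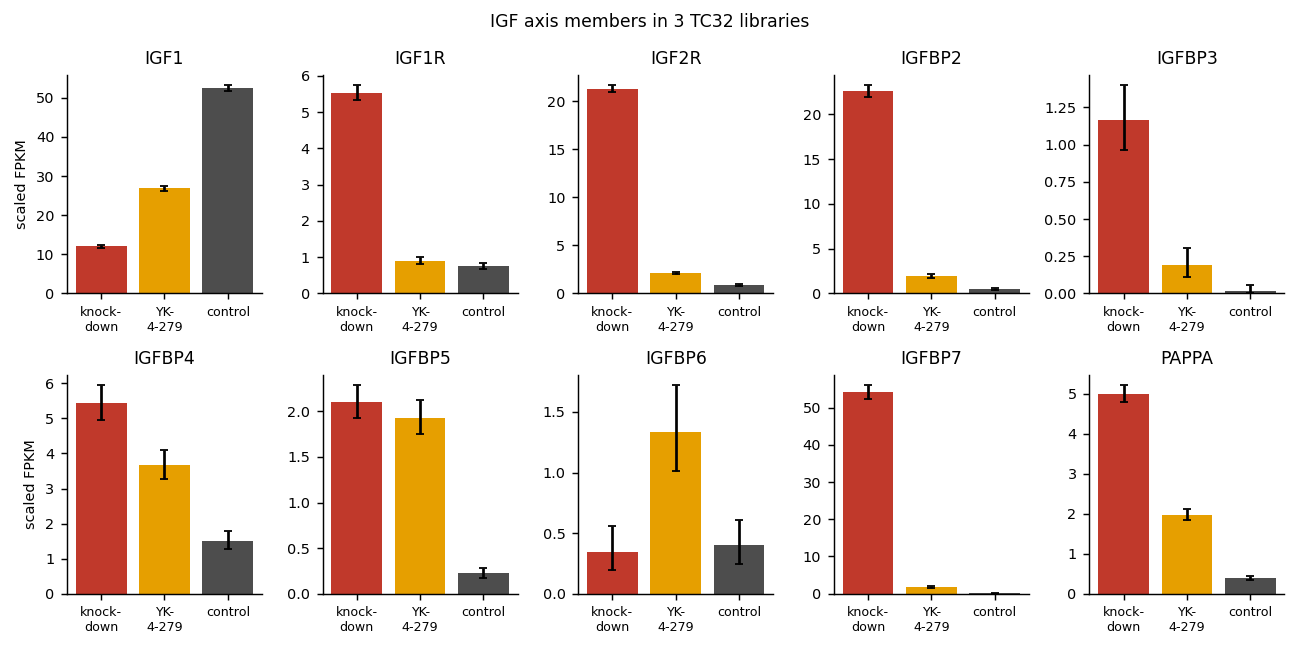
Scaled FPKM (y axis, linear, a separate range in each panel) of the 10 IGF axis members in the knockdown, YK and control libraries (1 library each); error bars are 95% intervals for counting error only, from estimated fragments. IGF1 is tallest in the control at 52.5, while IGF2R, IGFBP2 and IGFBP7 are tallest after knockdown at 21.3, 22.6 and 54.1.

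The promoters of the ligand and of IGFBP2 and IGF2R, the members with the largest knockdown ratios that had an entry, are shown because the fusion's ETS domain reads GGAA, and its repeats in particular. The table of RefSeq promoters (GRCh38.p14, a later build than that of the FPKM files) held 9 of the 10 members in 12 promoters, and IGFBP7 was not among them. IGF1 and IGFBP2 have more than 1 promoter there, and the window printed is the most upstream for IGF1 and, for IGFBP2, that with the most GENCODE starts. Each line gives the 250 bases before the start in the gene's direction, 5′ to 3′. Capitals mark GGAA or its reverse complement TTCC in IGF1 and IGFBP2, and CACGTG in IGF2R.
IGF1, minus strand, chr12:102481748-102481997: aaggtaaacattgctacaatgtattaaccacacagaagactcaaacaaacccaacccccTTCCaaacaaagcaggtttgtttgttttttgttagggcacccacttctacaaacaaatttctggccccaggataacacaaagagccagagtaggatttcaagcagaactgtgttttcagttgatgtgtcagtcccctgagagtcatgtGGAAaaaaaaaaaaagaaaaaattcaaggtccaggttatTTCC
IGFBP2, plus strand, chr2:216633170-216633419: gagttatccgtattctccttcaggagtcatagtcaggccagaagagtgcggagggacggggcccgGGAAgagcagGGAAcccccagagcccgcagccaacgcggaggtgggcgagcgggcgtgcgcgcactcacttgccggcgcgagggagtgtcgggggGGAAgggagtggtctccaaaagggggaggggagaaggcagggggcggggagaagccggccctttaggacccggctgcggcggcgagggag
IGF2R, plus strand, chr6:159968832-159969081: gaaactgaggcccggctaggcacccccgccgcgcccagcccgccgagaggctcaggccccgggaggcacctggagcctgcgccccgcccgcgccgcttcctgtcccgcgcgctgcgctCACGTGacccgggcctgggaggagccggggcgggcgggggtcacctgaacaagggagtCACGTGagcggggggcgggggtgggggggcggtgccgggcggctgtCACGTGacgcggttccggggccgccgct
GGAA, counted on both strands, occurred 3 times in each of the IGF1 and IGFBP2 windows printed and 2 times in that of IGF2R. The other IGF1 window held it 2 times, and the other IGFBP2 windows 0 times (the most upstream) and 1 time, so each printed window is the one with the most copies for its gene. In all, 55.1% of the 35116 promoters in the table held it at least 3 times. The repeat GGAAGGAA was in none of the 12 member promoters and in 3.06% of all promoters. The IGFBP6 window, not printed, held GGAA 7 times, and the share of all promoters with as many was not counted. CACGTG, the palindromic E-box read by several basic helix-loop-helix factors, occurred 3 times before IGF2R and at least 3 times in 0.0797% of all promoters. It was looked for after the IGF2R sequence had been seen. A match is only a run of letters, and the windows leave out more distant elements.

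IGF1 was the most abundant member in the control. Its deposited values were 8.36 FPKM in the knockdown library, 12.7 with YK and 162 in the control, which scaled to 12.0, 26.8 and 52.5. Both treated libraries had less IGF1 than the control on this scale, the knockdown library least. Its relative log2 ratio was -2.04 after knockdown (SE 0.025, counting error only), a scaled level 4.36-fold lower, with a 95% counting interval of 4.21 to 4.53. Against the control it stood at -0.94 (SE 0.020) with YK, just short of the threshold, with a counting interval of 1.90 to 2.01-fold lower. IGF1 ranked 160th from the bottom of the 9939 compared genes after knockdown, and 203rd with YK. GENCODE 29 places an exon of HELLPAR, a long non-coding RNA, across IGF1 on the other strand, and the labels do not say that the libraries kept strand, so reads of the pair cannot be told apart.

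IGF2, the other ligand, could not be read alone. Its locus is joined with INS and INS-IGF2, and it had 0.0349, 0.0310 and 0.280 deposited FPKM in the knockdown, YK and control libraries. Loci without a gene name, a measure of background, had medians of 0.139, 0.150 and 0.0857 deposited FPKM, so the joined locus lay below the background in both treated libraries and above it in the control.

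IGF1R, the signalling receptor, was higher after knockdown and close to the control with YK. Its deposited values were 3.85 FPKM after knockdown, 0.427 with YK and 2.32 in the control, which scaled to 5.54, 0.905 and 0.752. Scaled IGF1R was 7.36-fold higher after knockdown (counting interval 6.64 to 8.18; relative log2 ratio 1.90, SE 0.038). On deposited FPKM without scaling its ratio was 0.55, below the threshold. With YK its relative log2 ratio was 0.12 (SE 0.046) and its fold 1.20 (1.05 to 1.38). The knockdown value stood apart from the other 2, which lay close together. INSR, the insulin receptor, which can pair with IGF1R, had 5.44, 2.29 and 2.83 scaled FPKM in the knockdown, YK and control libraries and passed the threshold in neither comparison with control. Within a library the ratio of IGF1R to INSR does not depend on the scale between libraries, and it was 1.02 after knockdown, 0.396 with YK and 0.266 in the control. IGF1R with YK lay at 2.85 times the median of the loci without a gene name, against 27.0 times in the control. That background is not subtracted in the ratio to INSR, so its difference between YK and control is not read further.

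IGF2R, the mannose 6-phosphate receptor, had 14.8 deposited FPKM after knockdown, 1.01 with YK and 2.64 in the control. On the common scale these were 21.3, 2.15 and 0.856. IGF2R was 24.9-fold higher after knockdown (22.8 to 27.2; relative log2 ratio 3.59, SE 0.031) and ranked 95th from the top of all compared genes. Its relative log2 ratio with YK was 0.76 (SE 0.041), a plain fold of 2.51, and it missed the threshold. Both rows of the gene were highest after knockdown, the larger at 18.1, 1.89 and 0.676 scaled FPKM and the smaller at 3.22, 0.259 and 0.180 in the knockdown, YK and control libraries. AIRN, the antisense transcript in an IGF2R intron, was listed below 0.1 deposited FPKM in all 3 libraries. M6PR, the smaller mannose 6-phosphate receptor, had a relative log2 ratio of 0.68 after knockdown, and the level of IGF2R over that of M6PR was 0.337 there, 0.0566 with YK and 0.0219 in the control.

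The binding proteins differed in abundance and in how far they moved. IGFBP7, a secreted protein of the vessel wall and stroma that binds IGFs weakly, had the largest ratio of any member. It had 37.6 deposited FPKM after knockdown, 0.832 with YK and 0.275 in the control, or 54.1, 1.76 and 0.0892 on the common scale. Its control value rested on about 6 estimated fragments, and it lay at 3.21 times the median of the loci without a gene name. IGFBP7 was 606-fold higher after knockdown, with a counting interval of 267 to 1586 (relative log2 ratio 5.66, SE 0.055), and ranked 28th of 9939. It passed the filter only through the knockdown library, so a high rank among compared genes is partly built in. With YK it was 19.7-fold higher (8.42 to 53.2; relative log2 ratio 1.34, SE 0.11). Its antisense partner IGFBP7-AS1 and the neighbour POLR2B overlap its exons on the other strand in GENCODE 29. POLR2B, an RNA polymerase subunit, had 44.7, 59.4 and 64.4 scaled FPKM in the knockdown, YK and control libraries, an order opposite to that of IGFBP7.

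IGFBP2, a carrier of both IGFs with an integrin-binding motif, had 15.7 deposited FPKM after knockdown, 0.932 with YK and 1.60 in the control. Scaled, it stood at 22.6, 1.97 and 0.519. IGFBP2 was 43.5-fold higher after knockdown (35.7 to 53.2; relative log2 ratio 3.96, SE 0.053). Its ratio with YK was 0.97 (SE 0.072), within counting error of the threshold.

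IGFBP4, which limits IGF action until PAPPA cuts it, was the most abundant binding protein in the control. It had 3.78, 1.73 and 4.66 deposited FPKM in the knockdown, YK and control libraries, and 5.44, 3.67 and 1.51 scaled FPKM. Its relative log2 ratios were 1.36 after knockdown (SE 0.090) and 0.89 with YK (SE 0.097). IGFBP4 differs from the other members that were higher after knockdown in that its deposited value after knockdown was below that of the control, so on deposited FPKM its ratio has the other sign, at -0.25.

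IGFBP5, a matrix-bound carrier, was at nearly the same scaled level in both treated libraries, 2.10 FPKM after knockdown and 1.93 with YK, against 0.223 in the control. The deposited values were 1.46, 0.912 and 0.688 FPKM. Its relative log2 ratios to control were 1.34 (SE 0.054) and 1.26 (SE 0.056), and between YK and knockdown the ratio was -0.080 (SE 0.062), inside counting error. On deposited FPKM without scaling the knockdown ratio was 0.54, below the threshold. The antisense gene AC007563.2 overlaps its exons.

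IGFBP3, the main IGF carrier of blood plasma, and IGFBP6, which prefers IGF2, were scarce in all 3 libraries. IGFBP3 had 0.810 deposited FPKM after knockdown, 0.0895 with YK and 0.0509 in the control, where about 2 fragments stood behind it. The scaled ratio of knockdown to control was 70.6, with a counting interval of 17.2 to 532. Its values with YK and in the control lay below the median locus without a gene name, so no difference between these libraries is read from them. IGFBP6 had 0.240, 0.629 and 1.23 deposited FPKM in the knockdown, YK and control libraries and 0.346, 1.33 and 0.399 scaled FPKM. It was the 1 member whose scaled level was highest with YK, and its relative log2 ratios to control were -0.056 (SE 0.13) after knockdown and 0.74 (SE 0.14) with YK.

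PAPPA, the protease that frees IGF from IGFBP4, had 3.47 deposited FPKM after knockdown, 0.929 with YK and 1.19 in the control. On the common scale it had 5.00, 1.97 and 0.385. PAPPA was 13.0-fold higher after knockdown (11.2 to 15.1; relative log2 ratio 2.11, SE 0.039) and 5.10-fold higher with YK (4.35 to 6.01; 1.10, SE 0.045). Its larger row carried the knockdown difference, with 4.72 scaled FPKM after knockdown and 0.297 in the control, while the smaller row had 0.271 and 0.0887. With the larger row alone the ratio with YK was 0.91, below the threshold. The exons of PAPPA-AS1 overlap PAPPA on the other strand. The level of PAPPA over that of IGFBP4, its main substrate, was 0.918 after knockdown, 0.536 with YK and 0.254 in the control.

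**Figure D2:**
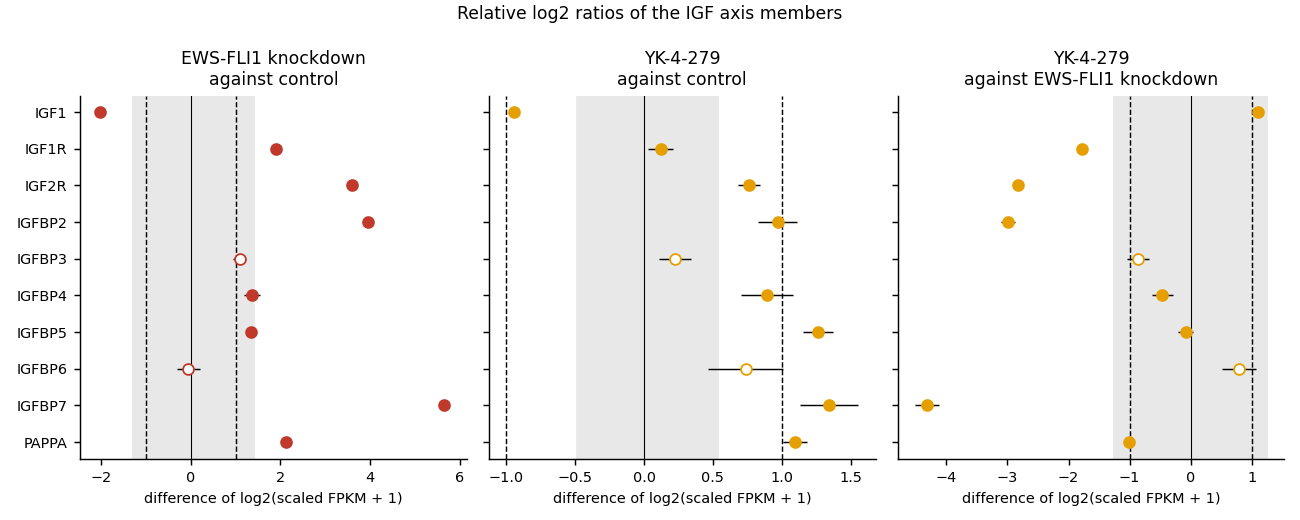
Relative log2 ratio (x axis, difference of log2(scaled FPKM + 1)) of each member in the 3 comparisons; filled points passed the filter on low values, open points did not, horizontal bars are 95% intervals from the counting SE, dashed lines mark -1 and 1, and the grey band runs from the lowest to the highest decile of all compared genes (-1.30 to 1.41 after knockdown). After knockdown IGFBP7 lies at 5.66 and IGF1 at -2.04, both outside the band; with YK the members lie between -0.94 and 1.34.

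The balance between binding proteins and ligand was also read within each library, where the scale between libraries cancels. The 6 binding-protein transcripts together had 7.12 times the FPKM of IGF1 after knockdown, 0.404 times with YK and 0.0526 times in the control. With the median of the loci without a gene name subtracted, these were 7.14, 0.342 and 0.0497. The order of the libraries was thus the same with and without that background. IGFBP7 made up 63.1% of the summed binding-protein FPKM after knockdown, 16.2% with YK and 3.23% in the control, and IGFBP4 made up 6.35%, 33.8% and 54.8%. The most abundant binding protein was therefore IGFBP7 in the knockdown library and IGFBP4 in the others. These are transcript levels per length, not amounts of protein.

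**Figure D3:**
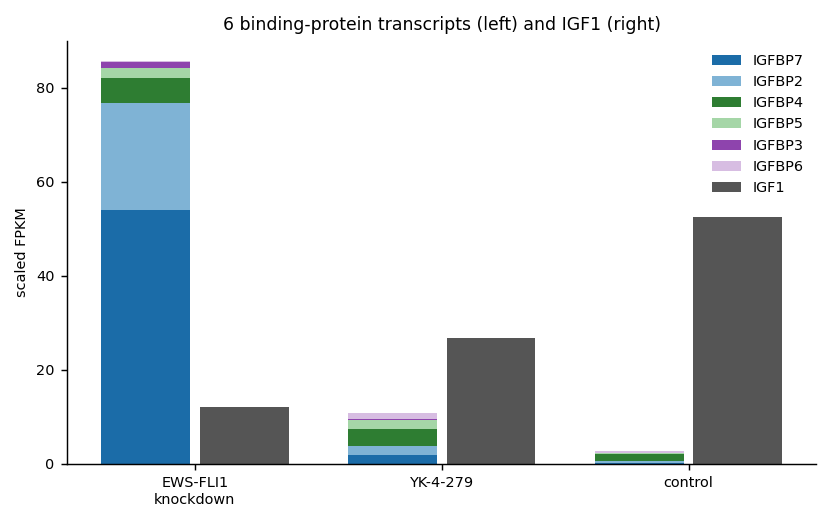
Summed scaled FPKM (y axis) of the 6 binding-protein transcripts, stacked by gene, beside IGF1 in each library (1 library per group). The stack stands above IGF1 after knockdown (85.7 and 12.0) and below it with YK (10.9 and 26.8) and in the control (2.76 and 52.5).

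Ranked by scaled FPKM, the members fell in a different order in each library. After knockdown the order was IGFBP7, IGFBP2, IGF2R, IGF1, IGF1R, IGFBP4, PAPPA, IGFBP5, IGFBP3 and IGFBP6. The counting intervals of IGF1R and IGFBP4 overlapped there, as did those of IGFBP4 and PAPPA. With YK IGF1 led and IGFBP4 came second at 3.67, followed by IGF2R, IGFBP2, PAPPA, IGFBP5 and IGFBP7 between 2.15 and 1.76, each with an interval that overlapped its neighbour's. IGFBP6, IGF1R and IGFBP3 came last, the intervals of IGFBP7 and IGFBP6 overlapping and those of IGFBP6 and IGF1R not. In the control IGF1 led, IGFBP4 followed at 1.51 and the other 8 lay below 1. The control order was IGF2R, IGF1R, IGFBP2, IGFBP6, PAPPA, IGFBP5, IGFBP7 and IGFBP3, in which only PAPPA and IGFBP5, and IGFBP2 and IGF1R, were neighbours whose intervals did not overlap.

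YK was also set directly against knockdown. Of the 8 compared members IGF1 was higher with YK (1.09, SE 0.028), where 15.3% of all compared genes were higher. IGFBP7, IGFBP2, IGF2R, IGF1R and PAPPA were lower, where 14.5% were lower. IGFBP7 had the largest difference, 30.7-fold lower (24.9 to 38.0; relative log2 ratio -4.32, SE 0.099), followed by IGFBP2 at -2.99, IGF2R at -2.83, IGF1R at -1.78 and PAPPA at -1.02. IGFBP4 and IGFBP5 passed the threshold in neither direction, at -0.46 and -0.080. This comparison shares its libraries with the other 2.

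Scarce genes as a class were also high after knockdown. With compared genes split by their level with YK into 5 groups of like size, the lowest group had a median relative log2 ratio of 0.64 after knockdown and the highest group -0.96. The loci without a gene name had medians of 0.21 after knockdown and 0.35 with YK on the same scale, which carries a pseudocount of 1. Their median levels were 0.1996, 0.318 and 0.0278 scaled FPKM in the knockdown, YK and control libraries, lowest in the control. The plain folds of scarce members given above do not subtract this background. With it subtracted, the relative log2 ratios with YK were 1.24 for IGFBP7, 0.86 for PAPPA, 0.59 for IGF2R and -0.063 for IGF1R. With the running median of genes of like level removed, 6 members were higher after knockdown, IGFBP5 was at 0.76, and IGF1 was lower at -1.23. The part of level in the members' ratios was not tested further.

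The calls with YK depended on processing more than those after knockdown. On deposited FPKM without scaling the knockdown ratios of IGFBP7, IGFBP2, IGF2R and PAPPA were 4.92, 2.68, 2.12 and 1.03, where 71.4% of all compared genes were lower and 3.03% higher. With YK the deposited ratios of IGFBP7 and IGFBP5 were 0.52 and 0.18 and those of the other compared members were below 0, where 92.2% of all compared genes were lower and 0.573% higher.

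**Figure D4:**
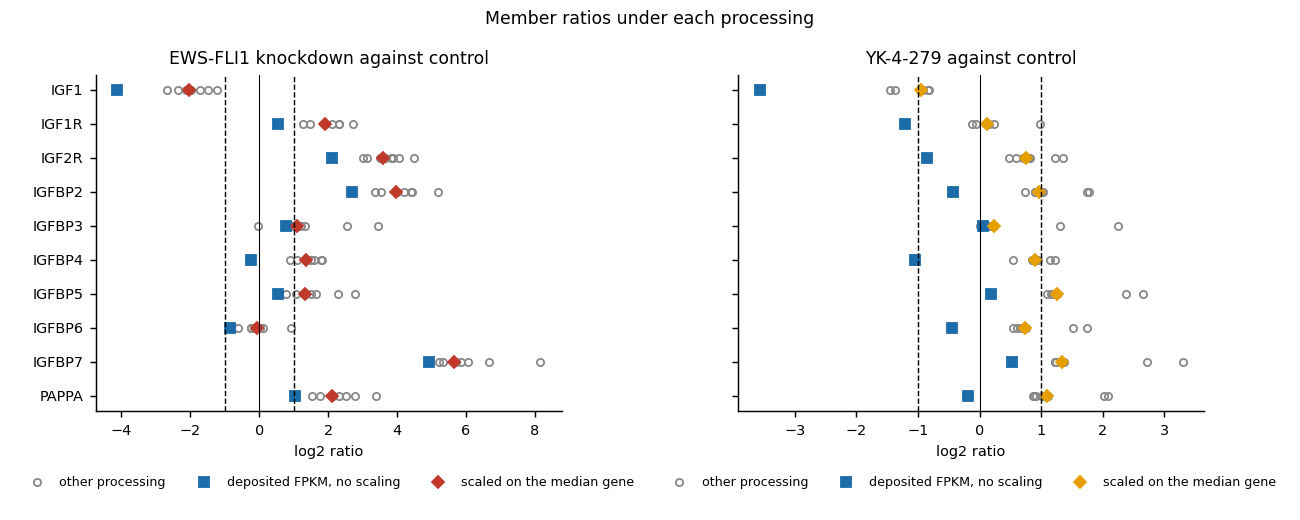
Log2 ratio (x axis) of each member under every processing tried, after knockdown (left) and with YK (right), both against control; diamonds are values scaled on the median gene, squares deposited FPKM without scaling, open circles the other settings, and dashed lines mark -1 and 1. IGFBP7, IGFBP2 and IGF2R lie right of 1 and IGF1 left of -1 in every setting after knockdown, while with YK IGFBP2 ranges from -0.43 to 1.77 and PAPPA from -0.18 to 2.09.

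Other genes of the axis were taken from lists of known function, and each count is set beside the 17.3% of all compared genes that were higher and the 17.0% that were lower after knockdown, and the 2.41% and 1.69% with YK. Of 8 IGFBP proteases and PAPPA inhibitors, 4 were compared, 2 were higher after knockdown and 0 were past the threshold with YK. ADAM9, a membrane protease that cuts IGFBP5, had 19.2, 4.41 and 2.94 scaled FPKM in the knockdown, YK and control libraries (2.35 after knockdown). HTRA1, a secreted serine protease that also cuts IGFBP5, was listed at 0 in the control and had 10.3 scaled FPKM after knockdown and 0.565 with YK, so no fold is given; it passed the filter through the knockdown library. STC1, which inhibits PAPPA, had relative log2 ratios of 0.77 after knockdown and 0.18 with YK. PRG2, the remaining compared gene of this list, went the other way, at -0.88 after knockdown and -0.32 with YK.

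Of 8 IGFBP-related proteins, which share the amino-terminal fold of the family, 2 were compared and both were higher in both treated libraries than in the control. CYR61 had 98.1, 2.89 and 0.293 scaled FPKM in the knockdown, YK and control libraries, with relative log2 ratios of 6.26 and 1.59. CTGF had 67.0, 2.46 and 0.103, with ratios of 5.95 and 1.65. CTGF also passed the filter through the knockdown library. Both are matricellular proteins and known targets of the coactivator YAP.

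Of 38 names on the list from receptor to AKT and MTOR, 29 were compared, and 8 were higher and 2 lower after knockdown, with a median of 0.78 beside 0.0064 for all compared genes. SHC1, an adaptor that couples receptors to RAS, was at 3.07, the transcription factor FOXO1 at 2.38 and PIK3R3, a regulatory subunit of PI3 kinase, at 2.03. The lower pair were EIF4EBP1, a translation repressor that MTOR inactivates, at -2.24 and MLST8, a subunit of both MTOR complexes, at -1.26. With YK the list had a median of 0.067, with EIF4EBP1 lower at -2.36 and the joined locus PHLPP2,SNORA70D higher at 2.94. The joined value cannot be assigned to PHLPP2 alone. Under its own name PHLPP2 was not compared, and it had 0.0410, 1.02 and 0.00467 scaled FPKM in the knockdown, YK and control libraries. EIF4EBP1 had 10.7 scaled FPKM after knockdown, 9.77 with YK and 54.3 in the control. IRS1 and IRS2, the adaptors at the receptor, passed the threshold in neither comparison with control, at 0.51 and -0.11 after knockdown and 0.15 and 0.27 with YK.

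Of 7 genes of the mannose 6-phosphate pathway, which tags and sorts the enzymes that IGF2R carries, 6 were compared, 3 were higher after knockdown and 0 passed the threshold with YK. GNPTG and GNPTAB, subunits of the enzyme that makes the tag, were at 2.05 and 1.37 after knockdown and the sorting adaptor GGA1 at 1.35. Of the 3 IGF2 mRNA-binding proteins IGF2BP2 was higher after knockdown at 1.39, and IGF2BP1 and IGF2BP3 were at 0.23 and 0.46.

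**Figure D5:**
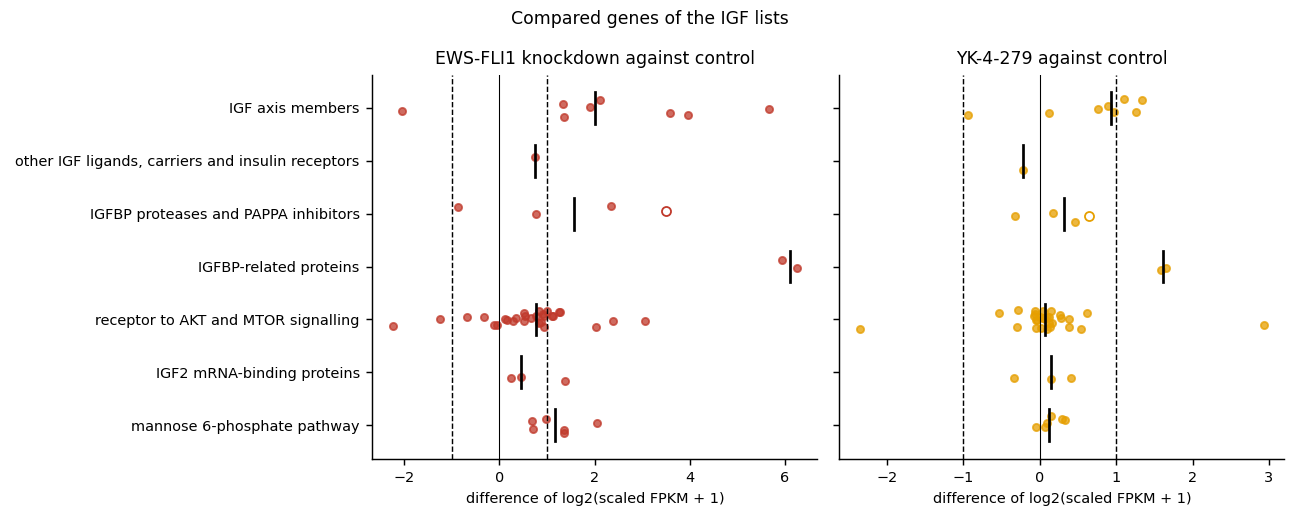
Relative log2 ratio (x axis) of each compared gene on the IGF lists (rows) after knockdown (left) and with YK (right), both against control; vertical bars are list medians, dashed lines mark -1 and 1, open points are listed at 0 in the control, and vertical scatter within a row has no meaning. The 2 IGFBP-related proteins lie near 6 after knockdown, and most signalling genes lie between the dashed lines with YK.

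The genes closest to the 3 members with the largest knockdown ratios were found by distance in the pair of ratios to control, which share the control library. Closest to IGFBP7 were NT5E (distance 0.26), DKK1 (0.26, listed at 0 in the control) and the joined locus COL3A1,MIR1245A,MIR3606 (0.30). Closest to IGFBP2 were ITGB5 (0.13), MCAM (0.15) and APLP2 (0.16). Closest to IGF2R were TRAM2 (0.050), the joined locus HLA-B,HLA-C (0.055) and OSMR (0.062). NT5E, DKK1 and TRAM2, like IGFBP7, passed the filter only through the knockdown library. The likeness rests on 3 libraries.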

How the data were processed

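RNA-seq was run on total RNA of 3 TC32 cultures, with cDNA made by a SMARTer kit per the labels' protocols. The authors deposited FPKM for 88434 loci in every library, made with TopHat, Cufflinks 2.2.1 and CASAVA 1.8.2 on build hg19 (GRCh37), per the submitters' processing notes. The annotation, any scaling between libraries and the handling of multiply mapped reads were not stated. Of the loci, 24751 carried a gene name; rows with the same name were summed to 22714 names, of which 767 join several genes.

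Names with a mean deposited FPKM of at least 1 (9939) were compared. Scale factors were the inverse of each library's median ratio to the gene's geometric mean, over the 9883 of these above 0 in every library. Log2 ratios used a pseudocount of 1, which understates changes of scarce genes. No test was possible with 1 library per group. The depth per library is not given. It was estimated from olfactory receptor genes with a single transcript, whose commonest low value put 1 fragment in 1 kb at 0.0172, 0.0128 and 0.0681 FPKM in the knockdown, YK and control libraries. Ratios of low loci without a name put the control at 3.77 and 4.95 times the knockdown and YK values, against 3.97 and 5.31 from the olfactory genes. Fragments used the longest GENCODE 29 transcript, and the SEs and exact 95% intervals are approximate and cover counting error only.

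Named genes were the 10 members, up to 3 genes per direction, list and comparison with the largest ratio, and the 3 nearest genes of 3 members. Every other gene named (such as INSR, M6PR, STC1, IRS1, IRS2, LUM, NKX2-2, CD99, CD68, CD3E, CDH5, IGF2BP1, IGF2BP3, POLR2B, AIRN and the IGF2 locus) falls outside that rule and was named after its values were seen, except FLI1, which checks the knockdown. The members and lists were chosen with earlier results of these data known. Alternatives covered scale, background, pseudocount, filter, rows per symbol and threshold. The calculation was also run on simulated data without background or a trend with level, which checks the code only and not its fitness for these libraries. Python 3.11.15, pandas 2.3.3, numpy 2.4.6 and scipy 1.17.1 were used.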

Additional observations from a re-analysis of the deposited data

How the results depend on the processing

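No paired analysis was possible because each group had 1 library, and no replicate could be left out. After knockdown the count of members higher than in the control was 7 and became 4 on deposited FPKM without scaling and 3 with a minimum mean of 5; it lay between 6 and 8 in the other settings, and IGF1 was lower in every setting run. With YK against control the count higher was 3. It became 0 on deposited FPKM, 6 with deposited ratios centred on their median, 6 with a pseudocount of 0.1, 6 with a threshold of 0.59 and 1 with a minimum mean of 5, while the share of all compared genes that were higher was 2.41% as reported and 0.573%, 12.3%, 6.33%, 8.28% and 2.30% in these settings. It became 4 with the running median of genes of like level removed and 2 with the highest row per symbol, where 2.32% and 2.38% were higher. It was also 2 with factors set over all named genes above 0 and with the median of loci without a gene name subtracted, both added after seeing the data. There 1.56% and 2.50% were higher. The count lower with YK against control was 0, and became 3 on deposited FPKM and 1 each with centred deposited ratios, with a threshold of 0.59 and with factors set over all named genes above 0. The share of all compared genes that were lower was 1.69% as reported, 92.2% on deposited FPKM, and 4.49%, 7.07% and 8.18% in the other settings, so 3 of 8 members is a smaller share than that of all genes on deposited FPKM. For YK against knockdown the count of 1 member higher, IGF1, became 0 on deposited FPKM, with centred deposited ratios, with upper quartile scaling and with scaling on the sum of named genes. In these settings 5.08%, 11.3%, 10.9% and 5.34% of all compared genes were higher, against 15.3% as reported. With the running median of genes of like level removed the count was again 1, but the member was IGFBP5 at 1.29 and IGF1 was at 0.32; IGF1 passed the threshold in 4 of the 9 settings that give single-gene ratios. In the same comparison the 5 of 8 lower, where 14.5% of all compared genes were lower, became 3 of 4 with a minimum mean of 5, where 11.1% were lower. They became 4 with centred deposited ratios, with the running median removed and with factors set over all named genes above 0. In these settings 11.9%, 11.8% and 11.7% of all compared genes were lower.

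Among the compared members' ratios past the threshold as reported, 3 changed sign. On deposited FPKM, the ratio of IGFBP4 after knockdown was -0.25 and that of PAPPA with YK was -0.18. With the running median of genes of like level removed, PAPPA in YK against knockdown was at 0.24. Ratios that were short of the threshold or of a member not compared changed sign as well, among them these: with YK on deposited FPKM, IGFBP4 was at -1.05, IGF1R at -1.22, IGF2R at -0.85, IGFBP2 at -0.43 and IGFBP6 at -0.45, and with the running median removed IGFBP5 and IGFBP3 were at 1.29 and 0.74 in YK against knockdown. The causes were not tested. Over the 9 settings that give single-gene ratios, the knockdown ratio ran between 4.92 and 8.16 for IGFBP7, between 2.68 and 5.19 for IGFBP2, between 2.12 and 4.49 for IGF2R and between -4.12 and -1.23 for IGF1, all past the threshold. It ran between 0.55 and 2.73 for IGF1R and between 0.54 and 2.77 for IGFBP5, both below the threshold on deposited FPKM. For all compared genes, the split of higher and lower after knockdown was 17.3% and 17.0% as reported, 24.0% and 9.87% with upper quartile scaling, and 30.5% and 6.05% with scaling on the sum of named genes. Depth limits IGFBP3 and IGFBP7 most, with about 2 and 6 fragments in the control.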

Other observations

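Several genes of the axis stood below the filter on low values and are given as values, chosen after they were seen. STC2, which inhibits PAPPA, had 2.64 scaled FPKM in the knockdown library, 0.347 with YK and 0.142 in the control. IGFBPL1, an IGFBP-like protein, had 2.0, 0.394 and 0.228 scaled FPKM in the same libraries. WISP2, a member of the CYR61 and CTGF family, had 0.929, 0.705 and 0.0249 scaled FPKM, and its control value was below the median of the loci without a gene name. TSC2, which restrains MTOR, had 1.39, 1.58 and 0.404 scaled FPKM. IGFALS, the carrier subunit of plasma IGF complexes, was listed at 0 in the control, and IGFBP1 at 0 with YK.

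Within a library, IGF1 had 2.17 times the FPKM of its receptor IGF1R after knockdown, 29.7 times with YK and 69.8 times in the control. IGFBP7 had 9.94 times the FPKM of IGFBP4 after knockdown, 0.480 times with YK and 0.0589 times in the control. These ratios do not depend on the scale between libraries, but the background of the loci without a gene name is not subtracted in them.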
